A study of Mus musculus with 10 samples.

Results

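Among 10 arrays of mouse hippocampus, 5 carried a high level of choroid plexus transcripts and 5 a low level. The arrays were divided by the RMA log2 level of Ttr, which encodes transthyretin, the thyroxine carrier that choroid plexus epithelium makes in abundance. Arrays above 12 formed the choroid plexus-rich side (3 control and 2 Dp5/Dp1 arrays) and arrays below 12 the choroid plexus-poor side (2 control and 3 Dp5/Dp1 arrays). Within control mice, replicates 1, 4 and 5 were on the rich side and replicates 2 and 3 on the poor side. Within Dp5/Dp1 mice, replicates 3 and 5 were on the rich side and replicates 1, 2 and 4 on the poor side. The sides were therefore chosen from these same arrays, and every difference between them is given as a description, with no test. The tests given concern genotype.

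Each array held RNA of both hippocampi of 1 male mouse aged 16 weeks. Dp5/Dp1 mice, a model of Down syndrome, carry the Dp5Yah duplication (Cyyr1 to Clic6) together with the Dp1Rhr duplication (Cbr1 to Fam3b) of mouse chromosome 16, so the genes of both intervals are present in 3 copies. Controls were littermates with neither duplication. The labels give a C57BL/6N background for both groups, while the methods of the study name C57BL/6J. The duplications are germline, so all cells of a dissection carry them. The control arrays, which the labels call a reanalysis, also served mice with a single duplication (not analysed here). Nothing on the labels gives the amount of choroid plexus taken with a hippocampus.

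The choroid plexus is a fringe of secretory epithelium over a vascular stroma that hangs into the brain ventricles, and in the lateral ventricle it lies against the hippocampus. Its epithelial cells move sodium, potassium, chloride, bicarbonate and water into the cerebrospinal fluid and secrete carrier proteins and growth factors into it. Whether a brain dissection includes a piece of it is a known source of variation in hippocampal RNA. In bulk samples such as these, fewer cells of a type and less RNA per cell cannot be told apart.

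Ttr levels left a wide gap around the limit. In rising order, the poor side was at 9.30 (Dp5/Dp1 replicate 1), 9.46 (control replicate 2), 9.76 (control replicate 3), 10.81 (Dp5/Dp1 replicate 4) and 10.88 (Dp5/Dp1 replicate 2). The rich side was at 13.06 (Dp5/Dp1 replicate 3), 13.22 (control replicate 5), 13.23 (Dp5/Dp1 replicate 5), 13.38 (control replicate 4) and 13.45 (control replicate 1). The array just inside the limit was thus at 13.06 and the array just outside it at 10.88. On the rich side Ttr ranked at or above 99.85% of the genes of its array. Whether the array could show a further rise there was not tested. Ttr set the sides and is no evidence for them. In the sentences that follow, the 5 values of each side are listed in this same order of arrays.

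The levels of 7 other choroid plexus markers describe the sides further. Kcnj13 (chr1:87384577-87394729, GRCm38.p6) encodes the potassium channel Kir7.1 of the apical membrane. It was at 7.04, 6.50, 6.74, 7.29 and 7.65 on the poor side and at 10.07, 10.37, 10.73, 10.97 and 11.20 on the rich side. Its difference with genotype in the fit was 3.65, or 12.5-fold. That of Ttr was 3.28. Whether its place near the top of the range limited this value was not tested, so the sizes for these genes are not ranked. Within the poor side, Dp5/Dp1 replicates 2 and 4 were the highest pair for both Ttr and Kcnj13.

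Clic6, an intracellular chloride channel gene at the distal end of the Dp5Yah interval (chr16:92498147-92541241), was at 6.34, 5.80, 6.19, 6.08 and 6.79 on the poor side. On the rich side it was at 8.21, 7.77, 8.88, 8.72 and 8.73, a difference of 2.28. Ace, which encodes angiotensin-converting enzyme, an ectoenzyme of the epithelial surface, lay between 7.91 and 8.12 on the poor arrays and was at 8.87, 8.91, 9.21, 9.40 and 9.67 on the rich arrays. The sides did not overlap for either gene.

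Ecrg4, the source of a secreted peptide of the epithelium, was at 6.65, 6.97, 6.91, 6.91 and 6.97 on the poor side and at 7.76, 8.01, 8.25, 8.35 and 8.81 on the rich side (difference 1.31). Tmem72, a membrane protein gene, was at 6.02, 5.96, 5.90, 5.92 and 6.04 against 6.99, 7.31, 7.20, 7.83 and 8.03 (difference 1.45). Both varied less on the poor side than on the rich side, with control replicate 1 at the top.

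Cldn2, the claudin of the leaky epithelial junction, was at 5.27, 5.23, 5.17, 5.14 and 5.35 on the poor side and at 5.72, 5.74, 5.82, 6.24 and 6.33 on the rich side (difference 0.71). Aqp1, the apical water channel, was at 6.37, 6.26, 6.29, 6.36 and 6.27 against 6.77, 6.50, 6.73, 6.75 and 6.96 (difference 0.44). These were the smallest differences of the 8 markers and Cldn2 was also dim, above only 20.9% of genes by mean level, where RMA compresses differences. The sides did not overlap for any of the 7 markers other than Ttr, and the name choroid plexus-rich describes this. The markers were chosen with earlier results of these data known, so their levels are no test of the name.

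**Figure D1:**
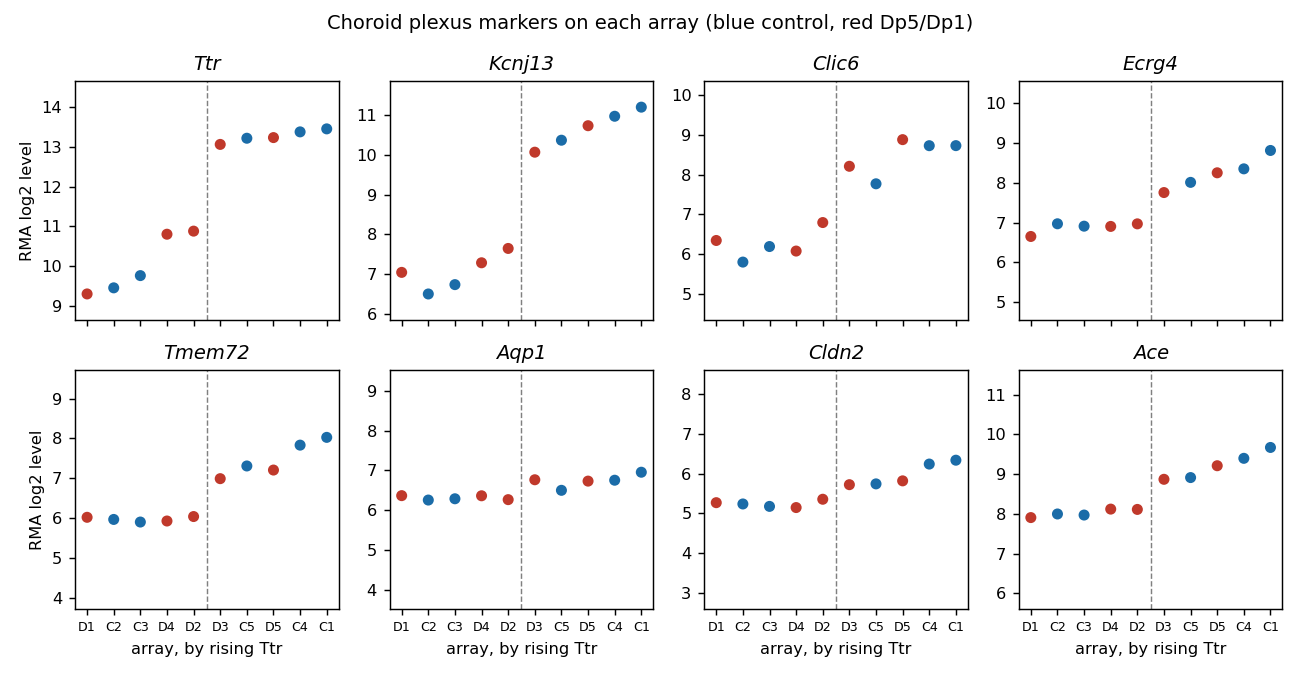
RMA log2 level (vertical axis, the same span in each panel) of the 8 choroid plexus markers on each array, ordered from left to right by rising Ttr; C and D with a number are control and Dp5/Dp1 replicates, and the dashed line separates arrays below and above a Ttr level of 12. Ttr steps from 10.88 to 13.06 at the line, and for the other 7 markers each array on the right is above each array on the left.

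Across all 19938 genes, 15 were at least 2-fold higher on the rich side with no overlap between the sides, which is 0.0752% of the genes. None was lower by as much (0%). Without a limit on size, 233 genes lay wholly above (1.17%) and 281 wholly below (1.41%). The median difference of all genes was -0.0037, and 47.3% of them were higher on the rich side. All 15 genes past 2-fold are members of choroid plexus lists chosen with earlier results of these data known. Since Ttr chose the sides on these arrays, nothing further is read from these counts. Besides the markers Kcnj13, Ttr, Clic6, Tmem72, Ecrg4 and Ace they were Sostdc1, Slc4a5, F5, Folr1, Otx2, Lbp, Sulf1, Kl and Abca4.

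**Figure D2:**
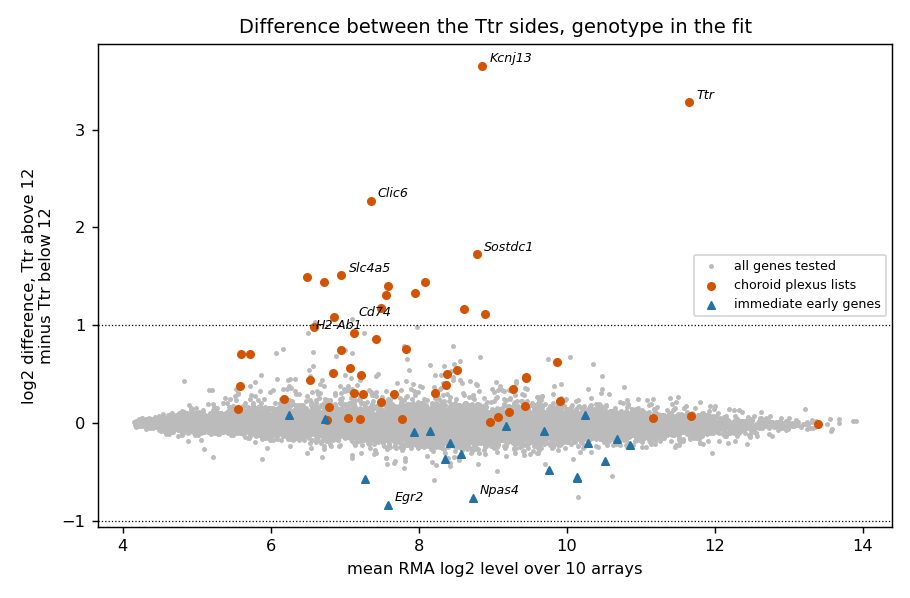
Difference between the arrays with Ttr above 12 and below 12 with genotype in the fit (vertical axis, log2) against the mean RMA log2 level over the 10 arrays (horizontal axis) for the 19938 genes; orange points are choroid plexus genes, blue triangles immediate early genes, and the dotted lines mark 2-fold. The points past the upper line with the largest differences are Kcnj13 at 3.65, Ttr at 3.28 and Clic6 at 2.28, and no point passes the lower line.

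Sequences before a start of 4 of these genes are shown because Otx2 itself was among them. Otx2 is a homeodomain transcription factor of the choroid plexus epithelium, and factors of its class bind the letters TAATCC. RefSeq promoter windows (GRCm38.p6) held 9 of the 14 genes other than Ttr, and TAATCC or its reverse complement GGATTA stood within 250 bases before a start of 3 of the 9: Abca4, Ace and Otx2. By start sites, it stood before 3 of 13. Of all 27025 genes in the RefSeq windows 7.21% held it, as did 6.25% of the 32851 starts. The windows run 5' to 3' along the strand of the gene, with the match in capitals. They belong to Abca4 (chr3:122044210-122044459, plus strand), Ace (chr11:105967698-105967947, plus strand), Otx2 (chr14:48665110-48665359, minus strand) and, as a strongly differing gene with no match, Kcnj13 (chr1:87394730-87394979, minus strand). The Abca4 and Otx2 windows lie inside the gene coordinates (chr3:122043891-122180070 and chr14:48656781-48667644), before an internal start. The other windows of Otx2 and Ace held no match, among them those at the 5' end of Otx2.
Abca4: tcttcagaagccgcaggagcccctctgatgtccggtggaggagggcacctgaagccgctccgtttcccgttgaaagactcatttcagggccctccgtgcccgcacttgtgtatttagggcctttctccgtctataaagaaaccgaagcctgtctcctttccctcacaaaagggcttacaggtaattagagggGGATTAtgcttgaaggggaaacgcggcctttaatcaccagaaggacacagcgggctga
Ace: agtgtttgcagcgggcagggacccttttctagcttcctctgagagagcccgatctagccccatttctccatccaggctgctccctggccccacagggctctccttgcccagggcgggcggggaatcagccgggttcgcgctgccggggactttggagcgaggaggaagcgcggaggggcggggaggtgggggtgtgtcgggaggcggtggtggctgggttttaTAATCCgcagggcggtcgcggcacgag
Otx2: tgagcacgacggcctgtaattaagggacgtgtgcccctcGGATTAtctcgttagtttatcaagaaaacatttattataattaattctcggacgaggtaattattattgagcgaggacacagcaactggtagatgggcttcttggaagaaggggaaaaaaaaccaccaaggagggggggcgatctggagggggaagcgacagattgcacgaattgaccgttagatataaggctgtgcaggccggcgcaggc
Kcnj13: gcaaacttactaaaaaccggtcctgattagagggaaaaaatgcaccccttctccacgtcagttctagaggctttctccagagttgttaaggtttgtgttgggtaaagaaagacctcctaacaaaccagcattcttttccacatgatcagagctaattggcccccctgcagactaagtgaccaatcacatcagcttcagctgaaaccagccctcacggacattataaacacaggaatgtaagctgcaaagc
A match describes letters in a window and no match says only that these letters are not in that window. Binding was not measured.

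Of the genes for ion, water and metal transport, all 20 were measured, 19 were higher on the rich side, and 12 did not overlap, with a median difference of 0.38 beside the median of -0.0037 for all genes. Of all genes 47.3% were higher, 1.17% lay wholly above and 1.41% wholly below. These shares apply beside each list count that follows. Slc4a5, the sodium bicarbonate cotransporter NBCe2 (chr6:83207580-83304945), was at 6.34, 6.17, 6.14, 6.13 and 6.16 on the poor side and at 7.47, 7.49, 7.62, 8.08 and 7.96 on the rich side. Its poor arrays were nearly level and its difference was 1.51. Kcne2, a potassium channel subunit inside the Dp5Yah interval (chr16:92292389-92298133), was at 6.13, 6.13, 5.99, 6.22 and 5.99 against 6.95, 6.82, 7.21, 7.09 and 7.27 (difference 0.98).

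Smaller differences without overlap in this list included the sulphate transporter Slc13a4 (0.76), the copper importer Slc31a1 (0.54), the cation channels Trpv4 (0.52) and Trpm3 (0.47) and the anion exchanger Slc4a2 (0.39). Of this list 8 genes overlapped between the sides, among them Slc12a2, the sodium, potassium and chloride cotransporter NKCC1 (0.22), Car2, a carbonic anhydrase (0.07), Slc4a10 (0.06) and Atp1b1, a subunit of the sodium pump (-0.01).

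Of the genes for secreted proteins, carriers and ectoenzymes, 17 of 20 were measured, 17 were higher on the rich side and 13 did not overlap (median 0.71). Of all genes 47.3% were higher and 1.17% lay wholly above. Sostdc1, a secreted antagonist of BMP and Wnt signals (chr12:36314169-36318452), was at 7.90, 7.89, 7.83, 7.81 and 8.19 on the poor side and at 9.49, 9.21, 9.67, 9.82 and 10.06 on the rich side. Folr1, the folate receptor that carries folate across the epithelium (chr7:101858331-101870788), was at 7.47, 7.29, 7.30, 7.21 and 7.51 against 8.59, 8.42, 8.77, 8.98 and 9.27. For both genes control replicate 5 was the lowest array of the rich side and control replicate 1 the highest.

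F5, coagulation factor V (chr1:164151835-164220277), was at 5.79, 5.68, 5.66, 5.71 and 5.79 on the poor side and at 6.64, 7.07, 7.30, 7.64 and 7.66 on the rich side. Lbp, the lipopolysaccharide-binding protein (chr2:158306493-158332852), was at 7.22, 6.85, 7.65, 6.96 and 7.58 against 8.07, 8.41, 8.55, 8.94 and 9.23. The poor side of Lbp was uneven, with control replicate 3 and Dp5/Dp1 replicate 2 above the other 3 arrays. Igf2, the growth factor (0.63), and Prr32 (0.71) did not overlap either, whereas Stra6, the retinol transporter (0.02), and Bst2 (0.04) did.

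Of the genes for junctions, keratins, receptors and transcription factors, 17 of 20 were measured, 17 were higher on the rich side and 15 did not overlap (median 0.57). Of all genes 47.3% were higher and 1.17% lay wholly above. Otx2 (chr14:48656781-48667644) was at 6.45, 6.42, 7.46, 6.29 and 7.64 on the poor side and at 7.81, 7.73, 8.36, 8.82 and 8.81 on the rich side. Its gap between the sides was narrow, because control replicate 3 and Dp5/Dp1 replicate 2 were again high for their side. Its difference was 1.40 over all arrays, 1.51 within controls and 1.29 within Dp5/Dp1 mice.

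Kl, which encodes klotho, a co-receptor of FGF23 (chr5:150952607-150993817), was at 8.33, 8.43, 8.30, 8.23 and 8.31 against 9.18, 9.23, 9.39, 9.78 and 9.82. Sulf1, a sulphatase of extracellular heparan sulphate (chr1:12692197-12861192), was at 6.95, 6.75, 6.93, 6.80 and 7.06 against 7.65, 7.72, 8.26, 8.36 and 8.42. Abca4, a lipid flippase for retinoids (chr3:122043891-122180070), was at 6.28, 6.30, 6.36, 6.22 and 6.33 against 7.17, 7.14, 7.37, 7.59 and 7.81. For all 3, Dp5/Dp1 replicate 3 and control replicate 5 were the lowest rich arrays and control replicate 1 the highest. The tight junction gene Cldn1 (0.86), the epithelial keratin Krt18 (0.49), the serotonin receptor Htr2c (0.35) and the homeobox gene Msx1 (0.30) were higher without overlap, while Krt8 (0.31) and Cldn3 (0.06) overlapped.

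Taking the 3 lists without Ttr, 52 of 53 measured genes were higher on the rich side, 39 did not overlap and the median difference was 0.49. Of all genes 47.3% were higher and 1.17% lay wholly above. The mean log2 level over these 53 genes lay between 7.52 and 7.67 on the poor arrays and between 8.09 and 8.52 on the rich arrays. The split by genotype reuses the same Ttr cut, arrays and lists, so it is a description and no replication. Within controls 51 of the 53 genes were higher on the rich side (median 0.60, 3 against 2 arrays), and within Dp5/Dp1 mice 47 were (median 0.38, 2 against 3 arrays). Of all 19938 genes, 9037 were higher within controls and 10027 within Dp5/Dp1 mice. Of the 14 genes past 2-fold other than Ttr, control replicates 1 and 4 were the highest pair in 13. Control replicate 1 was the highest array for 11 of them and control replicate 4 for 2, and Clic6 was highest in Dp5/Dp1 replicate 5.

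**Figure D3:**
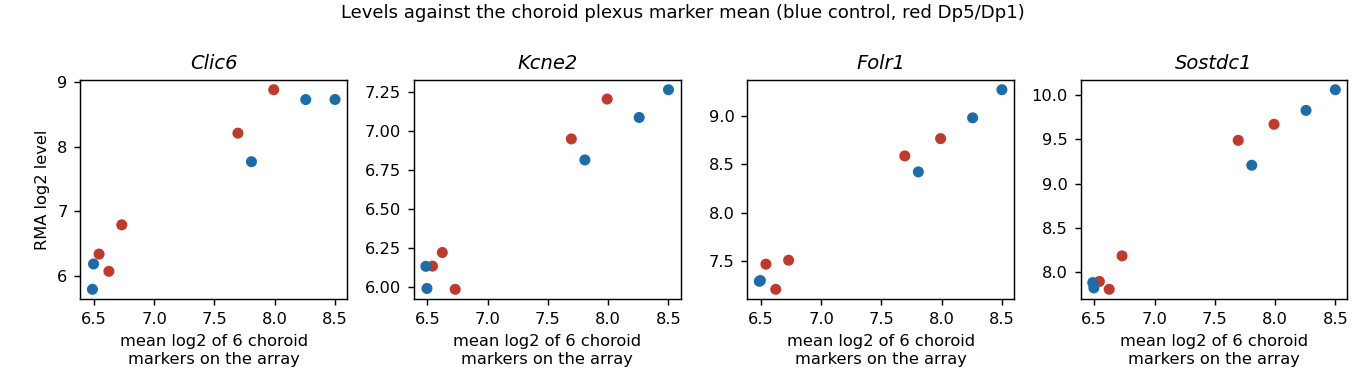
RMA log2 level of Clic6, Kcne2, Folr1 and Sostdc1 (vertical axes) against the mean log2 level of 6 choroid plexus markers on the same array (horizontal axis; Kcnj13, Ecrg4, Tmem72, Aqp1, Cldn2 and Ace), with control arrays in blue and Dp5/Dp1 arrays in red. In each panel 5 arrays lie to the lower left and 5 to the upper right, and both groups of arrays hold both colours.

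Past a 1.5-fold difference without overlap there were 34 of all 19938 genes, all higher on the rich side. Of the 34, 23 were among the 54 measured genes of the choroid plexus lists, Ttr included. The lists were chosen with earlier results of these data known and Ttr chose the sides, so such counts are a description. Of the 20 largest differences without overlap, predicted models left out, 17 were in these lists. The other 3 were Slc2a12, the glucose transporter GLUT12 (0.98), Pla2g5, a secreted phospholipase (0.92), and H2-Ab1, an MHC class II chain (0.93). Slc2a12 was at 7.52, 7.54, 7.56, 7.32 and 7.41 on the poor side and at 8.20, 8.15, 8.48, 8.63 and 8.98 on the rich side. Pla2g5 was at 7.04, 6.63, 6.68, 6.79 and 6.91 against 7.56, 7.35, 7.74, 7.77 and 8.15. Their rich arrays stood in nearly the order of the epithelial genes, with control replicate 1 the highest.

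The MHC class II genes had another order. H2-Ab1 was at 6.26, 6.17, 6.00, 5.97 and 6.09 on the poor side and at 6.73, 6.35, 8.32, 6.50 and 6.69 on the rich side. Its difference of 0.93 fell to 0.51 without Dp5/Dp1 replicate 5, the array at 8.32. Cd74, the invariant chain, reached 8.89 on that array and 6.86 to 7.42 on the other rich arrays, against 6.37 to 6.97 on the poor side, and its difference of 1.06 was 0.68 without it. H2-Aa reached 7.85 there and 6.03 to 6.25 on the other rich arrays, and its difference of 0.76 was 0.34 without it. These genes belong to a list of 12 genes of macrophages at the brain borders, of which 11 were higher on the rich side and 2 did not overlap (median 0.11). Of all genes 47.3% were higher and 1.17% lay wholly above. The mean log2 level of the list was 5.67 to 5.80 on the poor side and 5.76 to 6.34 on the rich side. F13a1, another member, differed by 0.23.

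Genes of the other tissues that could come with a choroid plexus differed less. Some of these lists were dimmer, and RMA compresses differences of dim genes. Among the dimmest 40% of genes were 15 of 24 ependymal and 4 of 7 blood genes, beside 10 of 54 choroid plexus genes. Of the meningeal list 5 of 21 were, and of the endothelial list 2 of 20. What part brightness had in the smaller differences was not tested. Of 24 genes of ependymal cells and motile cilia, 21 were higher on the rich side, with a median of 0.10. Their mean log2 level was 6.37 to 6.65 on the poor side and 6.54 to 6.67 on the rich side. Ak7, an adenylate kinase of the axoneme, was at 6.73, 6.57, 7.16, 6.53 and 7.22 against 6.90, 7.11, 7.38, 7.59 and 7.22, so its sides overlapped (difference 0.38). Cfap126 (0.30), Rsph1 (0.26) and Rarres2 (0.20) followed. In this list 1 gene lay wholly above and 1 wholly below, beside 1.17% and 1.41% of all genes. Control replicate 3 and Dp5/Dp1 replicate 2, the poor arrays that were high for Otx2 and Lbp, were also the highest poor arrays for Ak7, Rsph1 and Rarres2, but not for Cfap126, for which Dp5/Dp1 replicate 1 (6.34) was above control replicate 3 (6.27). What part ependyma had in these levels was not tested.

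Of 21 measured genes of meninges and fibroblasts, 16 were higher on the rich side (median 0.09), with 1 lying wholly above, beside 1.17% of all genes. The mean log2 level of the list was 7.27 to 7.46 on the poor side and 7.23 to 7.57 on the rich side. Mgp, an inhibitor of calcification, was at 7.50, 6.94, 7.13, 7.29 and 7.29 against 7.74, 7.14, 7.91, 7.81 and 7.78. The collagen-binding proteoglycans Lum (0.45), Dcn (0.35) and Ogn (0.25) followed. For all 4 of these genes control replicate 5 was the lowest rich array. Of 20 genes of endothelium and mural cells 16 were higher, with no gene free of overlap and a median of 0.07. Vwf differed by 0.28, the largest of that list. The globin genes Hba-a1, Hbb-b1 and Hbb-bt of the blood list had no value among the genes used. All 7 measured genes of blood cells were higher, none without overlap, with a median of 0.04. Their mean log2 level was 6.12 to 6.22 on the poor side and 6.14 to 6.30 on the rich side.

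The list medians of genes of the hippocampal tissue itself were 0.06 for 13 microglial genes, 0.04 for 12 astrocyte genes, 0.03 for 10 oligodendrocyte genes, 0.05 for 8 oligodendrocyte precursor genes and -0.0076 for 18 genes of hippocampal excitatory neurons. Of these 61 genes, Dsp, the desmosomal plaque gene of dentate granule cells, was the one that did not overlap. Of all genes 1.17% lay wholly above. It was at 8.90, 8.69, 8.99, 8.88 and 8.79 against 9.03, 9.29, 9.23, 9.14 and 9.18 (difference 0.32). The mean log2 level of the excitatory list was 10.51 to 10.59 on the poor side and 10.54 to 10.58 on the rich side. Of 12 interneuron genes 9 were lower on the rich side (median -0.07), led by the neuropeptide gene Npy with a difference of -0.24. The mean log2 level of the interneuron list was 9.91 to 9.99 on the poor side and 9.73 to 9.99 on the rich side. The lowest Npy levels were those of control replicates 1 (10.58) and 4 (10.71).

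**Figure D4:**
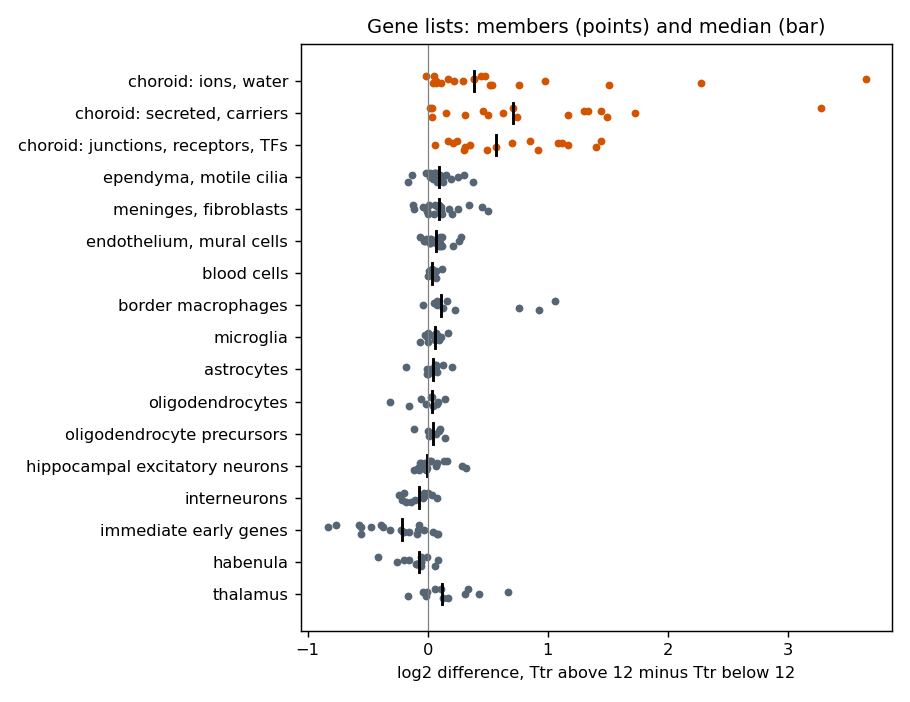
Difference between arrays with Ttr above 12 and below 12 (horizontal axis, log2, genotype in the fit) for each member of 17 gene lists; each point is a gene, each black bar a list median, and the 3 choroid plexus lists are in orange. The bars of the choroid plexus lists stand at 0.38, 0.71 and 0.57 and those of the other lists between -0.21 and 0.12.

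Genes that mark the brain regions next to the hippocampus overlapped between the Ttr sides. Of 14 habenular genes, 12 were lower on the rich side (median -0.07). Tac2, a neurokinin gene of the habenula, was highest in Dp5/Dp1 replicate 2 (10.08), Dp5/Dp1 replicate 5 (9.40) and control replicate 3 (9.13), and lay between 7.54 and 8.56 on the other arrays. The nicotinic receptor gene Chrna3 was at 9.03, 7.87 and 7.17 on the same 3 arrays and at 5.97 to 6.31 elsewhere. Of these arrays 1 was choroid plexus-rich and the other two were poor. Of 12 thalamic genes 8 were higher on the rich side, all overlapping (median 0.12). Zic1, a zinc finger transcription factor of the list, was at 8.10, 7.82, 9.11, 7.77 and 9.52 against 8.51, 8.87, 9.37, 9.85 and 9.30. Prkcd (0.43), Tcf7l2 (0.33) and Synpo2 (0.31) followed, and Tcf7l2 had opposite directions within controls (-0.23) and within Dp5/Dp1 mice (0.89).

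On the lower side of the distribution, no gene without overlap reached 1.5-fold. The largest such differences were -0.36 for Cdh9, a synaptic cadherin, -0.36 for Nmrk1, a nicotinamide riboside kinase, and -0.35 for Dkkl1. Cdh9 was at 10.32, 10.32, 10.28, 10.11 and 10.30 on the poor side and at 10.06, 9.89, 9.70, 9.88 and 10.07 on the rich side. The gap between Dp5/Dp1 replicate 4 and control replicate 1 was narrow. Ptpn12 (-0.30), Tmem145 (-0.28), Zfp398 (-0.27), Slc35f2, Bloc1s2, Coq10a and Pknox2 (each -0.26) followed.

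Regardless of overlap, the 6 lowest differences were those of Egr2, Npas4, Meg3, Coro6, Fos and Nr4a1. Meg3, a long noncoding RNA named here after its values were seen, was at 10.30, 10.28, 10.45, 10.97 and 10.41 on the poor side and at 9.16, 11.06, 9.23, 9.85 and 9.75 on the rich side (difference -0.75). Control replicate 5, a rich array, was the highest of all for it. Coro6 (-0.58), Rsrp1 (-0.54), Kcnab3 (-0.48) and the noncoding RNA Firre (-0.45), also named after their values were seen, overlapped as well.

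Egr2, Npas4, Fos and Nr4a1 are immediate early genes, transcription factor genes that neurons induce within minutes of firing. Of 20 such genes 17 were lower on the rich side (median -0.21), and none was free of overlap. Egr2 was at 7.83, 7.88, 8.84, 7.67 and 7.78 on the poor side and at 8.18, 6.96, 6.87, 6.83 and 6.99 on the rich side. Its difference was -0.83, and without Dp5/Dp1 replicate 3, the rich array at 8.18, it was -1.22 and the sides did not overlap. Without control replicate 3, the poor array at 8.84, it was -0.51.

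Npas4 was at 9.16, 9.11, 9.58, 8.39 and 9.15 against 9.04, 8.60, 7.38, 8.60 and 8.31 (difference -0.76, and -0.46 without Dp5/Dp1 replicate 5). Fos was at 7.37, 7.59, 8.02, 7.25 and 7.53 against 7.74, 6.95, 6.52, 6.91 and 6.86 (difference -0.57). Nr4a1, an orphan nuclear receptor gene, differed by -0.56, and by -0.36 without Dp5/Dp1 replicate 5. Without Dp5/Dp1 replicate 3 the differences were -1.10 for Npas4, -0.88 for Fos and -0.86 for Nr4a1. In all 4 genes Dp5/Dp1 replicate 3 stood with the poor side and control replicate 3 was the highest array. The list median was -0.37 within controls and -0.06 within Dp5/Dp1 mice. What part the amount of choroid plexus had in these levels was not tested.

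The question of whether the genotypes differed in choroid plexus content does not use the Ttr rule and was tested. The mean log2 level of 6 markers (Kcnj13, Ecrg4, Tmem72, Aqp1, Cldn2 and Ace) was 7.51 ± 0.96 in controls (SD, n = 5) and 7.12 ± 0.67 in Dp5/Dp1 mice (SD, n = 5). The difference was -0.39 ± 0.53 (SE; exact two-sided permutation test of the group means, p = 0.437). The smallest p that 5 against 5 arrays allow in that test is 0.00794. In size the difference was below the SD of either group. Leaving out each array in turn gave differences from -0.65 (without control replicate 2 or 3) to -0.15 (without control replicate 1), and no sign changed. It was -0.21 without control replicate 4, -0.61 without Dp5/Dp1 replicate 5 and -0.25 without Dp5/Dp1 replicate 1.

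Most single choroid plexus genes had a lower mean in Dp5/Dp1 mice, following the marker mean. Of the 48 measured choroid plexus genes other than the 6 averaged ones, 43 did, with a median difference of -0.14, beside 9666 of all 19938 genes and a median of 0.0019. None was called by limma at an adjusted p below 0.05, a threshold that 0.206% of all genes passed (41 of 19938). When the marker mean of each array was entered as a covariate, 25 of the 48 had a lower estimate and the median was -0.0041, and again none was called, with 0.201% of all genes passing (40 of 19938). The median standard error of these genes went from 0.15 to 0.06, and it fell to under 0.5 of its former size for 26 of the 48. The covariate comes from the same arrays, so its effect on these genes is a description of shared variation.

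**Figure D5:**
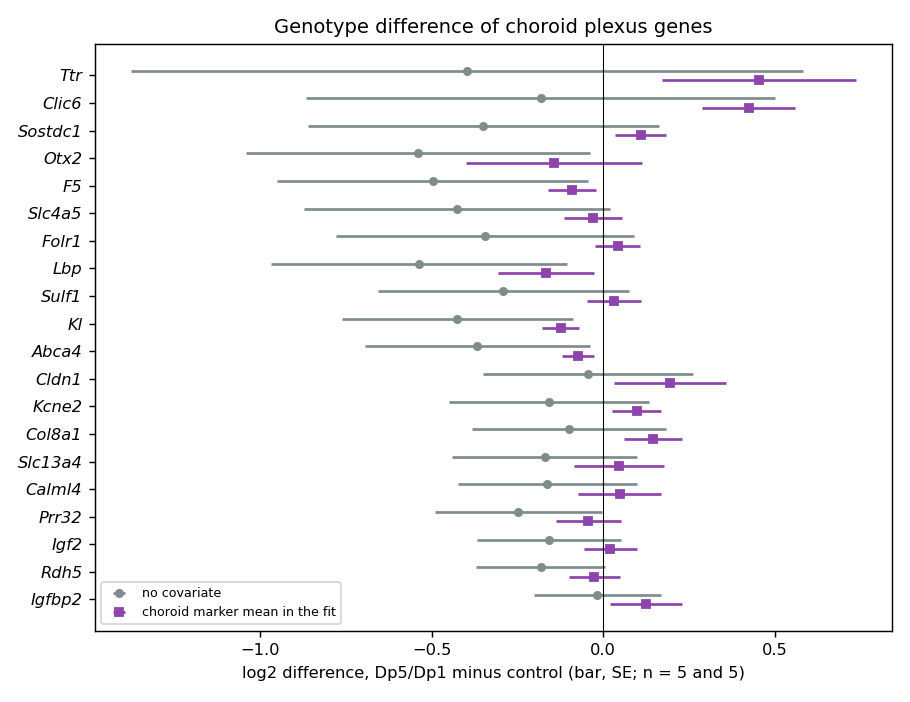
Difference between Dp5/Dp1 and control arrays (horizontal axis, log2, n = 5 and 5) for choroid plexus genes that are not in the covariate, from limma without a covariate (grey circles) and with the mean of 6 choroid plexus markers in the fit (purple squares); bars are standard errors. Only the genes with the largest standard errors without the covariate are shown. Their bars shorten with the covariate, as for Clic6 from 0.68 to 0.14. Ttr, Clic6, Kcne2, Folr1 and Sostdc1 are among the genes that move from below 0 to above it. For some genes left out of the figure the standard error did not shorten, as for Atp1b1 (0.030 without and 0.032 with the covariate).

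The rank method FCROS, which has no covariate, put 1008 genes (5.06%) in its tails for Dp5/Dp1 against control. Its tails of 0.025 each are cut from a normal curve fitted to the mean ranks of all genes. A share near this one therefore passes by construction, and the count does not measure a genotype effect. Among the 54 choroid plexus genes it passed 7, all lower in Dp5/Dp1 mice, namely Ecrg4, Kl, Lbp, Htr2c, Abca4, Trpv4 and Car12, named here after their values were seen. Their limma differences without the covariate ran from -0.54 ± 0.43 (SE) for Lbp to -0.14 ± 0.06 for Car12, and none was called (adjusted p of 0.814 for Car12, limma). With the covariate Lbp was at -0.17 ± 0.14, Kl at -0.12 ± 0.05 and Car12 at -0.09 ± 0.04. Car12 and Htr2c, a carbonic anhydrase and a serotonin receptor, had the smallest standard errors of the 7 relative to their differences.

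A pair of choroid plexus genes lies inside the Dp5Yah interval and is present in 3 copies in Dp5/Dp1 mice. Clic6 was at 7.44 ± 1.38 in controls and 7.26 ± 1.22 in Dp5/Dp1 mice (SD, n = 5 each), a difference of -0.18 ± 0.68 (SE; limma, adjusted p = 0.974). With the marker mean in the fit the difference was 0.42 ± 0.14 (95% interval 0.13 to 0.72), which was not called (limma, adjusted p = 0.633; unadjusted p = 0.00951). Its size depended on the covariate, with 0.27 for the Ttr side and 0.08 for the Ttr level. Between mice of one side, Clic6 was higher in Dp5/Dp1 mice by 0.14 among rich arrays and by 0.41 among poor arrays.

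Kcne2 was at 6.66 ± 0.57 in controls and 6.50 ± 0.54 in Dp5/Dp1 mice, a difference of -0.16 ± 0.29 (limma, adjusted p = 0.948). It became 0.10 ± 0.07 with the covariate (95% interval -0.06 to 0.26; adjusted p = 0.795) and was -0.05 with the Ttr level as covariate, so its direction was not settled. The other 40 measured genes of the Dp5Yah list had a median genotype difference of 0.38 without and 0.38 with the covariate. That list leaves out the claudin and keratin cluster of the interval, which the paper reports as not overexpressed when trisomic. The values are therefore not rates for the whole interval. Of these 40, 25 were called without the covariate (0.206% of all genes) and 24 with it (0.201% of all genes). Their median difference between the Ttr sides was 0.00071, and none of them was free of overlap between the sides. Of the 29 Dp1Rhr genes 12 were called in either fit.

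The covariate changed few calls elsewhere. Of the 41 genes called without it and the 40 called with it, 38 were shared. The 3 that were no longer called were Smim11 and Usp16, both in the Dp5Yah interval, and Cbs, which encodes cystathionine beta-synthase on chromosome 17. Cbs was at -0.40 in both fits, with an adjusted p of 0.0412 without and 0.0744 with the covariate (limma). The 2 called only with the covariate were Mrps6, a mitochondrial ribosomal protein gene of the interval (0.49 ± 0.08, adjusted p = 0.0319), and AI506816 on chromosome 5 (-0.47 ± 0.07, adjusted p = 0.0280). Without the covariate their adjusted p was 0.107 and 0.163 (limma). Called in both fits and in neither interval list were Runx1 (1.14 ± 0.07 without and 1.14 ± 0.08 with the covariate), the agouti gene a (0.63 ± 0.06 in both) and Gpnmb (0.25 ± 0.04 in both), a melanosomal glycoprotein gene. Runx1 lies next to Clic6 on chromosome 16, and per the study's methods the distal loxP site of the Dp5Yah duplication is inside it, so Runx1 is duplicated in part and is not a gene away from the duplication.

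Whether the difference between the sides varied with genotype was fitted as an interaction term in limma. The sides in this term were set by Ttr on the same arrays, so its values are a description and support nothing. No gene was called (0%), with a lowest adjusted p of 1, and 735 genes had an unadjusted p below 0.05. The 3 genes with the lowest p were Mir99a (-0.68 ± 0.13), Mccc1, a subunit of a leucine-degrading carboxylase (-0.41 ± 0.08), and 1700109H08Rik (-0.48 ± 0.10). For Clic6 the term was -0.27 ± 0.44, with the rich against poor difference 2.41 in controls and 2.14 in Dp5/Dp1 mice. Without Dp5/Dp1 replicate 3 the rich Dp5/Dp1 arrays were reduced to replicate 5. The interaction term was then 1.74 for H2-Aa and 1.79 for H2-Ab1. These terms rest on that single array, whose spread cannot be estimated, so no call is given for them.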

How the data were processed

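Affymetrix Mouse Gene 1.0 ST arrays were grouped by the condition label. The titles of the mutant arrays name Dp5Yah and add Dp5/Dp1 in brackets, so titles and condition label differ. The authors deposited log2 expression values normalized by RMA (background correction, quantile normalization and a summary per probe set). RMA, limma and mm10 are named in the submitters' processing notes, and versions are not given in the sources used here. Quantile normalization gives all arrays nearly the same distribution (medians 6.73 to 6.80), and RMA compresses differences of dim probe sets. The number of arrays limits the precision.

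Of 35556 probe sets, 21789 had 1 gene symbol, 1621 several and 12146 none in the platform annotation. The probe set with the highest mean represented each of 19938 genes, and coordinates came from RefSeq (GRCm38.p6), in which 21698 of these probe sets had an Entrez match. The difference between Ttr sides was the side coefficient of a least squares fit with genotype. A gene counted as past 2-fold when that coefficient was at least 1 and the arrays of the sides did not overlap.

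Genotype was tested in limma 3.58.1 (R 4.3.3; lmFit, eBayes, Benjamini-Hochberg over 19938 genes, threshold 0.05), without and with the mean of 6 choroid plexus markers per array, and the interaction with the Ttr side in a further fit. FCROS was rewritten from its description (25 array pairs, trim 0.25, tails 0.025). The marker mean was compared by an exact permutation test. Other steps used Python 3.11.15. The limma fits without and with the covariate were tried on simulated data with known genotype changes. The members and gene lists were chosen with earlier results of these data known. Named genes were the 8 markers, the 20 largest higher and 10 largest lower differences without overlap (predicted models and small RNAs left out), up to 4 members per list with the largest absolute difference, Clic6 and Kcne2, genes whose call changed with the covariate, called genes outside the interval lists, and the 3 lowest interaction p. Other choroid plexus list members were named after their values were seen. Alternatives comprised averaging all probe sets of a gene, a second quantile normalization, leaving out the 40% of genes with the lowest means, an intensity trend with robust variance, other covariates and limits, the replicate number as a block and leaving out each array in turn.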

Additional observations from a re-analysis of the deposited data

Results flagged for a closer look

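Within a genotype of 5 arrays, 10 of 208 groups (104 named or tested genes in 2 genotypes) had 1 array far from the other 4 by Dixon's 95% limit, where chance gives about 1 in 20 groups. On the choroid plexus-rich side, Dp5/Dp1 replicate 5 stood apart for H2-Aa (7.85, against 5.67 to 6.25 on the other Dp5/Dp1 arrays), for Nr4a1 (9.29, against 10.24 to 10.58) and for Bok (9.76, against 9.57 to 9.59). Dp5/Dp1 replicate 3 stood apart for the smooth muscle actin gene Acta2 (9.95, against 9.50 to 9.60) and for Pdgfra, a marker of oligodendrocyte precursors (9.37, against 9.17 to 9.22). Control replicate 1 did so for Tagln, another smooth muscle gene (7.56, against 7.09 to 7.22).

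On the choroid plexus-poor side, Dp5/Dp1 replicate 1 stood apart for Npy (11.53, against 11.11 to 11.19) and for the T cell gene Cd3e (7.05, against 6.97 to 6.98). Control replicate 3 did so for the habenular genes Tac2 (9.13, against 7.54 to 7.98) and Chrna3 (7.17, against 5.97 to 6.19).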

How the results depend on the processing

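Of the 111 results recomputed under another setting, 103 kept their direction and their side of the threshold, or a count within 1.5 times. The count of genes past 2-fold between the Ttr sides was 34 under a 1.5-fold limit and 15 to 19 without 1 array each. Without a covariate, the genotype count was 26 with the replicate block and 29 to 39 without 1 array each. The FCROS tails held 1008 genes (567 higher, 441 lower), a share set by the tail limits and not comparable with these counts. With the choroid plexus markers the genotype count was 24 to 41. It was lowest without control replicate 2 (24) and without Dp5/Dp1 replicate 3 or 5 (26 each). Kcne2 turned from 0.10 to -0.049 with the Ttr level as covariate, and the cause was not tested. Without 1 array each, Clic6 ran from 0.32 to 0.56 (adjusted p 0.175 to 0.973, limma), Kcne2 from 0.04 to 0.16 (0.442 to 0.974), the marker mean from -0.65 to -0.15 (exact permutation p 0.238 to 0.794) and the interaction count from 0 to 2 (2 without Dp5/Dp1 replicate 3). Kcne2 had no value with the dimmest 40% of genes left out. Same-numbered arrays correlated at -0.35 to 0.29 in their deviations, with no common direction. These values cannot tell whether equal numbers mark a shared litter or batch. The block moved the count past 2-fold to 19 and the count with markers to 27. RMA signal over background limits dim genes such as Cldn2.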
